A study of Mus musculus with 6 samples.

Results

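Azurophil granule genes encode the enzymes and packaging proteins that promyelocytes load into the primary granules of neutrophils and monocytes. They were followed here through 9 members, Mpo, Elane, Prtn3, Ctsg, Prss57, Ms4a3, Lyz2, Cst7 and Srgn, taken by symbol and chosen with earlier results of these data known. The members are 9 of the 53458 genes in the expression tables and all 9 were among the 22170 genes that passed the filter on low counts. The libraries came from acute myeloid leukaemia (AML) blasts of mouse bone marrow, 3 libraries labelled Cebpa-/p30 Tet2+/+ (numbers 19, 23 and 24) and 3 labelled Cebpa-/p30 Tet2-/- (numbers 5, 7 and 8). Both groups therefore shared the Cebpa lesion, in which 1 allele is deleted and the other yields the short p30 isoform without the long p42 isoform, and the comparison asked what added loss of Tet2, a 5-methylcytosine dioxygenase, does in that setting. Donors were C57BL/6J and recipients the congenic C57BL/6J.SJL, the floxed alleles of the donor marrow were recombined in irradiated recipients by Mx1-Cre, an interferon-responsive Cre induced with Poly(I)-Poly(C), and marrow was taken when recipients became moribund with AML. Live donor-derived cells negative for CD3, B220 and Ter119 were sorted, so each library is a mix of the non-lymphoid, non-erythroid donor cells of 1 leukaemia. Which leukaemias shared a donor, and the age at sampling, are not given in the sources used here.

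Azurophil granules are the first granules to form in the neutrophil lineage, and their contents are transcribed at the promyelocyte stage and shut down before the secondary granules are made. C/EBPα, PU.1, RUNX1 with CBFβ, MYB and GFI1 are the transcription factors classically tied to these genes. The serine proteases are stored active on a serglycin scaffold after cathepsin C trims them, and myeloperoxidase acquires its heme in the endoplasmic reticulum with the help of calreticulin and calnexin.

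Total estimated reads per library ranged from 13036643 to 32855343, with mouse 5 the deepest. A member had between 1083 and 224263 estimated reads in a library, and the largest counting error, which covers counting alone, was 3.04% of the value. Tet2 itself measured 73.6, 79.4 and 98.3 CPM (counts scaled to library size) in the Tet2+/+ libraries and 111, 79.4 and 96.7 CPM in the Tet2-/- libraries, and the genotypes overlapped. Reads were summed over the whole gene and the recombined exons are not given in the sources used here, so this level does not check the labels. Of the lineages removed by the sort, the T cell marker Cd3e was at 1.14 to 4.24 CPM and 8 B cell markers summed to 22.8 to 82.9 CPM, with mouse 23 the highest. Erythroid markers stood apart in mouse 19, whose 5 tested genes summed to 88.1 CPM against 1.97 to 9.96 CPM in the others, with 82.9 CPM from the globin gene Hbb-bt alone.

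Sequence upstream of the genes is shown for the neighbours Elane and Prtn3, whose levels diverged between mice, and for Ms4a3, 1 of the 2 members whose genotypes separated. The windows are the 250 bases before the RefSeq start (GRCm38.p6), written in the direction of transcription, and RefSeq windows were matched for 8 of the 9 members. Capitals mark the letters ATTGC (C/EBP), AGGAAG (PU.1) and AACNG (MYB) on either strand, a choice made after the sequences had been seen. Elane lies at chr10:79886062-79886311 (+ strand), Prtn3 at chr10:79879417-79879666 (+ strand) and Ms4a3 at chr19:11640852-11641101 (- strand).
Elane: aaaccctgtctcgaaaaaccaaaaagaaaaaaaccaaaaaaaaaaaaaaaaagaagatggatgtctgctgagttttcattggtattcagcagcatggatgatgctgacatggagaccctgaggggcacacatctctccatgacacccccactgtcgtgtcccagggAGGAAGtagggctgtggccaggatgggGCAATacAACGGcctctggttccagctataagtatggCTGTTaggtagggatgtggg
Prtn3: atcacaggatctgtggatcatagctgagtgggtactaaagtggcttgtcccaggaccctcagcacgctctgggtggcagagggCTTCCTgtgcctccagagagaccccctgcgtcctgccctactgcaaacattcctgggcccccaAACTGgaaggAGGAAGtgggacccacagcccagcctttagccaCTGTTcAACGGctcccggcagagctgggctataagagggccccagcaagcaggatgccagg
Ms4a3: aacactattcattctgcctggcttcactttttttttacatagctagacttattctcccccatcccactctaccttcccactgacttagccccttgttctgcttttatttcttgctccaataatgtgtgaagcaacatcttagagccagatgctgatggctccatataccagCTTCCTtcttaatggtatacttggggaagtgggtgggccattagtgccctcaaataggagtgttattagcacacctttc

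The Elane window held the C/EBP letters 57 bases before the start, PU.1 letters at 84 bases and MYB letters at 50 and 20 bases. The Prtn3 window held PU.1 letters at 167 and 94 bases and MYB letters at 104, 61 and 55 bases, and the C/EBP letters were not in it. The Ms4a3 window held only the PU.1 letters, at 79 bases. Of 32841 mouse windows of the same length, 23.1% held the C/EBP letters, 29.5% the PU.1 letters and 74.2% the MYB letters, so a match describes the window and no more. These windows had few CpG dinucleotides, 3 for Elane, 4 for Prtn3 and 0 for Ms4a3, against a median of 6 over all windows. In the annotation used for counting, the main transcripts of Elane and Prtn3 (the latter with 60.3% of Prtn3 reads) start 65 and 53 bases earlier than RefSeq, inside the windows shown, and the Prtn3 gene model itself begins further upstream, at base 79874476. The RefSeq window of Mpo is not shown because Mpo-203, the transcript with 86.9% of Mpo reads, starts 425 bases downstream of it.

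Compared per length, as TPM (abundance scaled to transcript length and library depth), the members spanned a wide range of levels. Lyz2 was above every other member in each mouse, from 1849 to 5188 TPM, and its lowest mouse was above the highest Mpo value of 1496 TPM. Mpo ranked next in every mouse but mouse 5, where Prtn3 reached 1163 TPM against 1025 TPM for Mpo. Elane, Srgn and Ctsg overlapped one another, as did Cst7 (54.6 to 77.1 TPM) and Prss57 (37.5 to 71.9 TPM) at the bottom of the order. Among protein-coding genes Lyz2 ranked 12th to 35th by TPM and Mpo 45th to 128th, whereas Prss57 ranked 1210th to 2410th.

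**Figure D1:**
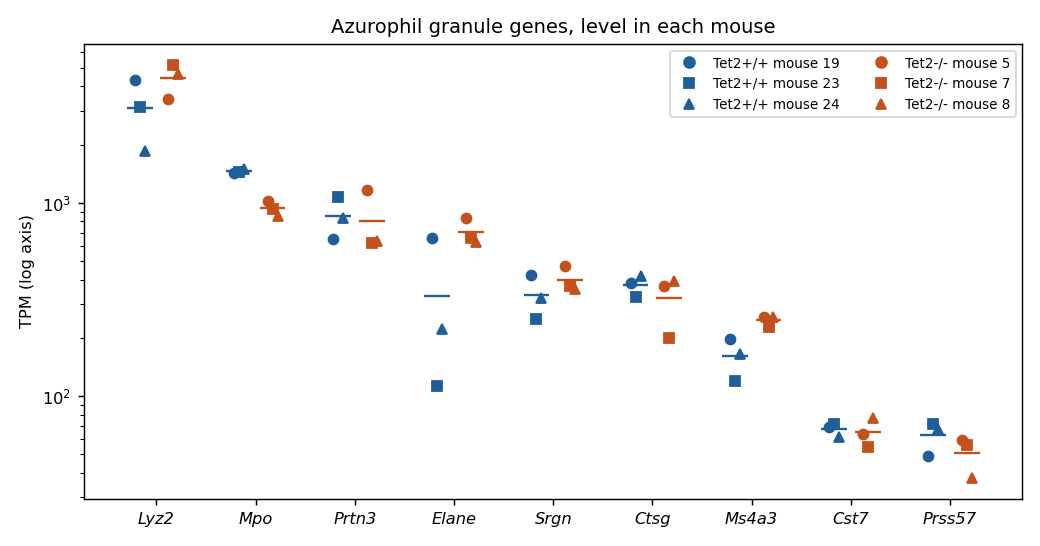
Level of each azurophil granule gene in each of the 6 mice, in TPM on a log axis, with genes ordered by mean level. Points are mice and horizontal lines are genotype means. Mpo lies lower in all 3 Tet2-/- mice and Ms4a3 higher, while Elane is spread from 112 to 659 TPM within the Tet2+/+ mice.

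Together the members held 0.817, 0.660 and 0.543% of all TPM in Tet2+/+ mice 19, 23 and 24, and 0.767, 0.830 and 0.785% in Tet2-/- mice 5, 7 and 8. The genotypes overlapped because mouse 19 was as high as the Tet2-/- mice. Without Lyz2 the share was 0.386, 0.346 and 0.358% against 0.424, 0.311 and 0.323%, so the genotypes overlapped and mouse 24 was no longer the lowest.

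Between genotypes the azurophil granule genes did not share a direction. By the quasi-likelihood test of edgeR, with p-values adjusted by Benjamini-Hochberg, 0 of 9 members passed an adjusted p of 0.05, where 0.0451% of all genes tested passed. At an unadjusted p under 0.05, 1 member was called (Ms4a3, higher), against a background of 3.0% of genes higher and 5.12% lower, 8.11% in either direction. DESeq2 on the same counts also called 0 of 9 members at an adjusted p of 0.05, with a background of 1.47% of genes lower and 0.266% higher. The mice of the 2 genotypes did not overlap for 2 of 9 members, 1 lower in Tet2-/- (Mpo) and 1 higher (Ms4a3). Over all genes tested 14.4% did not overlap, 7.94% lower and 6.41% higher, and among genes averaging 10 CPM or more the share was 15.9%. Fold changes were positive for 6 members and negative for 3, with a median log2 fold change of 0.065 beside 0.0016 for all genes tested and 0.10 for genes averaging 10 CPM or more. In bulk libraries, fewer cells of a type and less RNA per cell cannot be told apart, and this holds for every difference below.

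**Figure D2:**
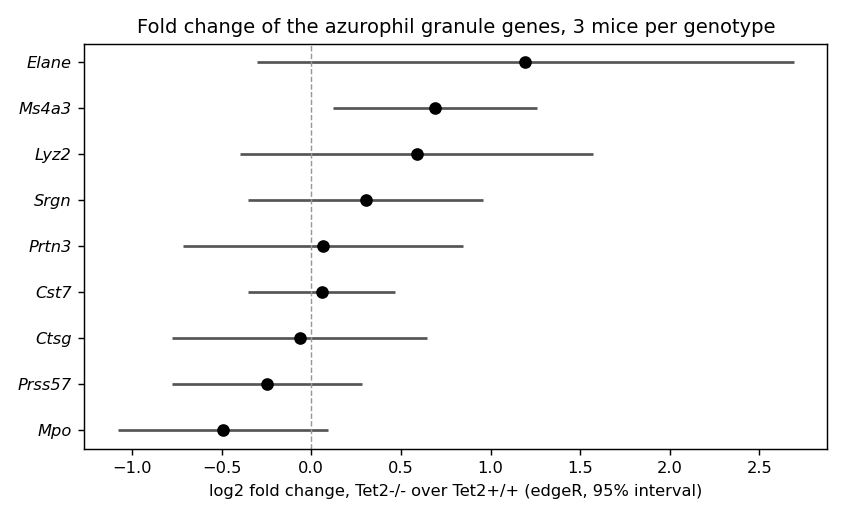
Log2 fold change of each azurophil granule gene, Tet2-/- over Tet2+/+, from edgeR with 3 mice per genotype. Points are estimates, bars are 95% intervals and the dashed line marks no change. Estimates run from -0.49 for Mpo to 1.19 for Elane, and the interval of Elane is the widest.

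Mpo (ENSMUSG00000009350, chr11:87793581-87804413, + strand) encodes myeloperoxidase, the heme enzyme that makes hypochlorous acid and the classical cytochemical mark of myeloid blasts. It measured 1426, 1440 and 1496 TPM in Tet2+/+ mice 19, 23 and 24, and 1025, 929 and 850 TPM in Tet2-/- mice 5, 7 and 8. All 3 Tet2-/- mice lay below all 3 Tet2+/+ mice, and the Tet2+/+ mice were close to one another. This amounted to a log2 fold change of -0.49 (SE 0.25, 95% interval -1.08 to 0.093), with an adjusted p of 0.664 by edgeR. An exact permutation test of the CPM gave p = 0.1, two-sided, the smallest value that 3 against 3 mice allow. The direction was the same in each of the 17 alternative analyses, from -0.67 to -0.41, and the lowest adjusted p was 0.183 with DESeq2 on the same counts.

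Ms4a3 (ENSMUSG00000024681, chr19:11629496-11640851, - strand) encodes a membrane-spanning protein found in granulocyte-monocyte progenitors and their early progeny. It measured 196, 120 and 165 TPM in Tet2+/+ mice 19, 23 and 24, and 256, 226 and 256 TPM in Tet2-/- mice 5, 7 and 8. Every Tet2-/- mouse was above every Tet2+/+ mouse, with the narrower spread in the Tet2-/- mice. The log2 fold change was 0.69 (SE 0.24, 95% interval 0.12 to 1.26), with an adjusted p of 0.580 by edgeR, and the exact permutation test gave p = 0.1.

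Among the serine proteases, Elane and Prtn3 had positive fold changes and Ctsg and Prss57 negative ones, those of Prtn3 and Ctsg with a sign that turned when a mouse was left out, and the mice overlapped for each. Elane (ENSMUSG00000020125, chr10:79886247-79888215, + strand) encodes neutrophil elastase. It measured 659, 112 and 221 TPM in Tet2+/+ mice 19, 23 and 24, and 834, 654 and 624 TPM in Tet2-/- mice 5, 7 and 8. The Tet2-/- mice were alike, whereas among the Tet2+/+ mice only mouse 19 reached their level. The highest Tet2+/+ CPM was 6.42 times the lowest, and 1.18% of genes averaging 10 CPM or more were as variable within Tet2+/+ mice. The log2 fold change was 1.19 (SE 0.64, 95% interval -0.30 to 2.69), with an adjusted p of 0.676 by edgeR. Without mouse 19 it was 2.27, with an adjusted p of 0.214, and without mouse 23 it was 0.76, with an adjusted p of 0.971. The difference therefore rests on which Tet2+/+ mice are counted, and it was positive in each of the 17 alternatives.

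Prtn3 (ENSMUSG00000057729, chr10:79874476-79883174, + strand) encodes proteinase 3 and ends 3072 bases before Elane starts, on the same strand. It measured 651, 1067 and 835 TPM in Tet2+/+ mice 19, 23 and 24, and 1163, 617 and 631 TPM in Tet2-/- mice 5, 7 and 8. The genotypes overlapped throughout, and mouse 23, the lowest for Elane, was among the highest for Prtn3. Its log2 fold change was 0.065 (SE 0.33, 95% interval -0.72 to 0.85, edgeR adjusted p 0.981), and its sign turned under 6 alternatives. The ratio of Elane to Prtn3 TPM was 1.01, 0.105 and 0.265 in Tet2+/+ mice 19, 23 and 24, and 0.717, 1.06 and 0.990 in Tet2-/- mice 5, 7 and 8. In mouse 23, then, Prtn3 was 9.52 times Elane, while in mouse 19 and in Tet2-/- mice 7 and 8 the levels were near equal. The transcripts of Elane and Prtn3 match at 64.8% identity over 610 bases, and the part of reads that fit both was not tested.

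Ctsg (ENSMUSG00000040314, chr14:56099881-56102574, - strand) encodes cathepsin G, the chymotrypsin-like protease of the granule. It measured 386, 324 and 417 TPM in Tet2+/+ mice 19, 23 and 24, and 372, 200 and 395 TPM in Tet2-/- mice 5, 7 and 8. The genotypes overlapped, and the low value of mouse 7 set the sign. This gave a log2 fold change of -0.064 (SE 0.30, 95% interval -0.77 to 0.65, edgeR adjusted p 0.977), and without mouse 7 it was 0.20.

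Prss57 (ENSMUSG00000020323, chr10:79781474-79790961, - strand) encodes neutrophil serine protease 4, a trypsin-like enzyme, 83514 bases upstream of Prtn3. It measured 49.1, 71.9 and 67.2 TPM in Tet2+/+ mice 19, 23 and 24, and 59.0, 55.6 and 37.5 TPM in Tet2-/- mice 5, 7 and 8. The genotypes overlapped only through mouse 19. Its log2 fold change was -0.25 (SE 0.23, 95% interval -0.78 to 0.28, edgeR adjusted p 0.821). Dropping mouse 19 gave -0.38 for Prss57, dropping mouse 24 gave -0.15 and dropping mouse 8 gave -0.080, and scaling by library size alone gave -0.44. Fstl3 lies antisense over 43.0% of the main Prss57 transcript, and the library kit does not keep strand. Fstl3 had at most 97 estimated reads in a library, and how reads of the overlap were divided between the genes was not tested.

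Lyz2 (ENSMUSG00000069516, chr10:117277331-117282321, - strand) encodes lysozyme M, which cleaves bacterial peptidoglycan and is made by neutrophils, monocytes and macrophages. It measured 4313, 3146 and 1849 TPM in Tet2+/+ mice 19, 23 and 24, and 3426, 5188 and 4625 TPM in Tet2-/- mice 5, 7 and 8. Mouse 24 was the lowest and mouse 7 the highest, and the genotypes overlapped through mice 19 and 5. The estimate was a log2 fold change of 0.59 (SE 0.42, 95% interval -0.40 to 1.57, edgeR adjusted p 0.764). Without mouse 19 the Lyz2 estimate was 0.98, and without mouse 24 it was 0.30. Lyz1, 5475 bases away and 95.8% identical over 96.0% of the transcript, had at most 135 estimated reads in a library, and adding it to Lyz2 left the log2 fold change at 0.59.

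Set against Mpo, Lyz2 gave a ratio of TPM that separated the genotypes, a pair picked after the levels had been seen and given without a test. The ratio was 3.02, 2.19 and 1.24 in Tet2+/+ mice 19, 23 and 24, and 3.34, 5.59 and 5.44 in Tet2-/- mice 5, 7 and 8. Mouse 5 lay just above mouse 19. Mpo alone already separated the genotypes, and the ratio of Elane to Mpo did so too. That ratio was 0.462, 0.078 and 0.148 against 0.814, 0.704 and 0.735, whereas the ratio of Prtn3 to Mpo overlapped.

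**Figure D3:**
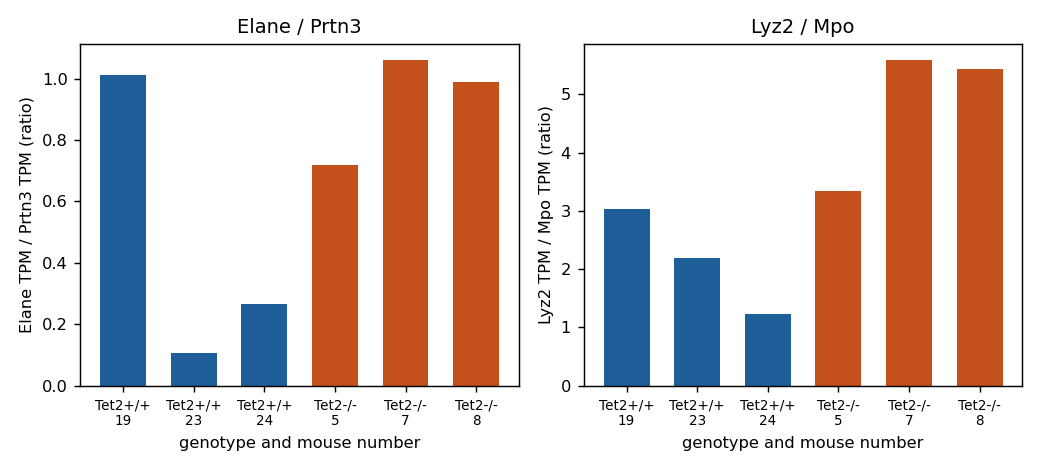
Ratio of Elane to Prtn3 TPM (left) and of Lyz2 to Mpo TPM (right), with 1 bar per mouse and both axes starting at 0. Elane and Prtn3 are near 1 to 1 in mice 19, 7 and 8 and far below that in mice 23 (0.105) and 24 (0.265), and the Lyz2 to Mpo ratio is higher in all 3 Tet2-/- mice.

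The inhibitor and the scaffold of the granule overlapped between genotypes. Cst7 (ENSMUSG00000068129, chr2:150570415-150578944, + strand) encodes cystatin F, an inhibitor of the cathepsins that process granule proteases. It measured 69.2, 71.5 and 61.6 TPM in Tet2+/+ mice 19, 23 and 24, and 63.2, 54.6 and 77.1 TPM in Tet2-/- mice 5, 7 and 8. The ranges overlapped and the log2 fold change was 0.058 (SE 0.17, 95% interval -0.35 to 0.47, edgeR adjusted p 0.960), the narrowest interval among the members. Srgn (ENSMUSG00000020077, chr10:62493833-62527451, - strand) encodes serglycin, the proteoglycan core that holds the proteases in the granule. It measured 424, 251 and 321 TPM in Tet2+/+ mice 19, 23 and 24, and 471, 372 and 356 TPM in Tet2-/- mice 5, 7 and 8. Mouse 19 was again within the Tet2-/- range. Srgn had a log2 fold change of 0.30 (SE 0.28, 95% interval -0.35 to 0.96, edgeR adjusted p 0.823). Leaving out 1 library moved this Srgn value to 0.59 without mouse 19, 0.099 without mouse 23 and 0.15 without mouse 5, and scaling by library size alone gave 0.15.

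Mouse 19 recurred among the members as the Tet2+/+ library nearest to Tet2-/-. Without it, 6 of 9 members had genotypes that did not overlap, and 27.7% of all genes tested did so in the same comparison of 2 with 3 mice. Elane, Ms4a3, Lyz2 and Srgn were higher in Tet2-/- and Mpo and Prss57 lower. Without mouse 5 the count was 4 of 9, beside 23.8% of all genes tested, adding Prtn3 (lower) and Lyz2 (higher) to Mpo and Ms4a3. Mouse 19 was also the library with the high Hbb-bt level, and the part of erythroid cells in its granule gene levels was not tested.

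The annotated transcripts of the members were compared by their share of the gene's reads, over 16 transcripts that held between 5 and 95% of a member's reads. The mice of the genotypes did not overlap for 4 of the 16, where 13.9% of 20976 transcript shares of all genes taken by the same limits did not overlap, and each of the 4 came with an exact permutation p = 0.1 (two-sided), adjusted to 0.400 over the 16. The largest difference was in Srgn. Srgn-205 held 9.86, 13.97 and 16.0% of Srgn reads in Tet2+/+ mice 19, 23 and 24, and 23.7, 24.04 and 20.6% in Tet2-/- mice 5, 7 and 8. Srgn-201, the main transcript, held 87.7, 83.6 and 82.3% against 74.3, 73.3 and 77.5%, nearly the mirror image, so that the shares of Srgn are 1 observation and not independent ones. The share of Srgn-205 was thus 9.50 percentage points higher in Tet2-/- on average, and higher in all 3 mice. Srgn-201 and Srgn-205 share their coding sequence and differ at both ends. Srgn-205 has a first exon of 26 bases at chr10:62507913-62507938 that Srgn-201 lacks, its next exon has 100 bases where the first exon of Srgn-201 has 114, and its 3′ end is annotated shorter. Which of these ends the assigned reads came from was not tested. The first exon of Srgn-205 is in capitals below, within the RefSeq window at chr10:62507758-62508007 (GRCm38.p6, - strand) that precedes the start of Srgn-201.
Srgn: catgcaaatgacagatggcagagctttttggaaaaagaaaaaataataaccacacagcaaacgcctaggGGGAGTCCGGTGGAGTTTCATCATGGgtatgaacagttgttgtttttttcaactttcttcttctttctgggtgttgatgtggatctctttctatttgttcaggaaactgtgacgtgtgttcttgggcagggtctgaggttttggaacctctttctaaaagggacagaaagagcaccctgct

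The other separated shares were small. Mpo-203 held 86.3, 86.2 and 86.7% of Mpo reads in Tet2+/+ mice 19, 23 and 24, and 87.6, 87.6 and 87.0% in Tet2-/- mice 5, 7 and 8. Prss57-202 held 12.7, 12.7 and 11.5% against 14.1, 13.04 and 13.3%. For the shares of TPM in place of reads, Srgn-201, Srgn-205 and Prss57-202 stayed separated and Mpo-203 did not. Elane, Lyz2 and Cst7 have 1 annotated transcript each.

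**Figure D4:**
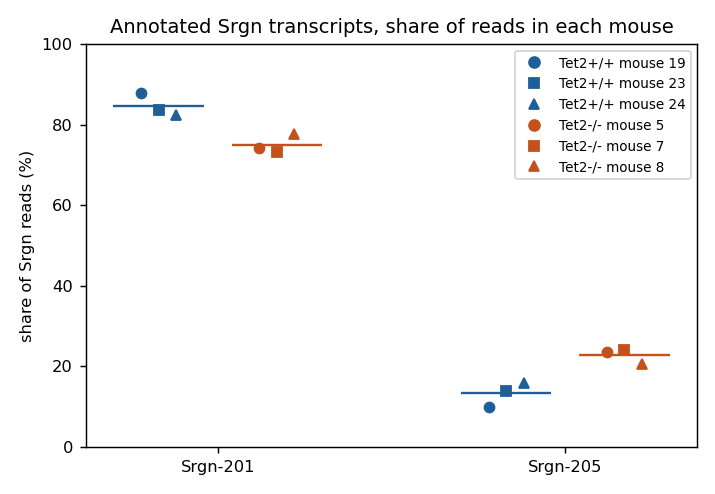
Share of Srgn reads assigned to the annotated transcripts Srgn-201 and Srgn-205 in each mouse, in percent. Points are mice and horizontal lines are genotype means. Srgn-205 lies between 20.6 and 24.04% in the Tet2-/- mice and between 9.86 and 16.0% in the Tet2+/+ mice.

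Other contents of azurophil granules and lysosomes overlapped between genotypes for most genes. Of 18 tested, 0 passed an adjusted p of 0.05, 1 was lower and 1 higher at an unadjusted p under 0.05, and 3 were higher and 1 lower without overlap. Over all genes tested these shares were 5.12% lower and 3.0% higher at an unadjusted p under 0.05, and 6.41% higher and 7.94% lower without overlap, which are also the backgrounds of the lists that follow. The median log2 fold change was 0.16, beside 0.0016 for all genes tested. Cd63, the tetraspanin of the granule membrane, measured 347, 335 and 341 CPM in Tet2+/+ mice 19, 23 and 24, and 516, 495 and 349 CPM in Tet2-/- mice 5, 7 and 8. The genotypes did not overlap, although mouse 8 was barely above mouse 19, and the log2 fold change was 0.41. Ctsd, the lysosomal aspartic protease cathepsin D, separated more clearly, at 421, 461 and 413 CPM against 595, 614 and 619 CPM. Its log2 fold change was 0.50 (SE 0.17, edgeR adjusted p 0.564). Hexa also lay higher in all 3 Tet2-/- mice and Bpi lower, the latter at no more than 1.14 CPM, and both were named for their separation. The lectin Fcnb had a log2 fold change of 1.16 (SE 0.81) and the cysteine protease Ctsh one of 0.16 (SE 0.35), with overlapping mice for both.

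Among 14 tested genes of granule sorting, storage and protease control, 0 passed an adjusted p of 0.05, 1 was higher at an unadjusted p under 0.05, and the median log2 fold change was 0.33. That gene was Serpinb1a, the cytosolic inhibitor of elastase, proteinase 3 and cathepsin G. It measured 543, 248 and 451 CPM in Tet2+/+ mice 19, 23 and 24, and 1081, 941 and 598 CPM in Tet2-/- mice 5, 7 and 8. All 3 Tet2-/- mice were higher, and the log2 fold change was 1.08 (SE 0.36, edgeR adjusted p 0.545). Slpi, a secreted inhibitor of elastase, had a log2 fold change of 0.73 (SE 0.39), Stxbp2, which serves granule exocytosis, 0.31 (SE 0.23), and the cystatin Cst3 -0.18 (SE 0.38). The mice overlapped for these 3 genes.

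Genes that work with myeloperoxidase, in heme synthesis, folding or the NADPH oxidase that supplies its substrate, numbered 10 tested. None passed an adjusted p of 0.05 (0 of 10), 1 was higher at an unadjusted p under 0.05, and the median log2 fold change was 0.23. Cyba, the p22phox subunit of the oxidase, measured 367, 307 and 262 CPM in Tet2+/+ mice 19, 23 and 24, and 536, 606 and 434 CPM in Tet2-/- mice 5, 7 and 8. It was higher in every Tet2-/- mouse, with a log2 fold change of 0.75 (SE 0.22, edgeR adjusted p 0.491). Calr, the calreticulin that chaperones newly made myeloperoxidase, measured 1048, 1324 and 1060 CPM against 901, 576 and 868 CPM. It was lower in every Tet2-/- mouse, as was Mpo, with a log2 fold change of -0.55 (SE 0.25, edgeR adjusted p 0.640). The oxidase subunits Ncf4 and Ncf1 had log2 fold changes of 0.91 (SE 0.43) and 0.46 (SE 0.38) with overlapping mice.

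Of 13 regulators of granule genes, 0 passed an adjusted p of 0.05, 3 were lower and 0 higher at an unadjusted p under 0.05, and the same 3 had genotypes that did not overlap, beside 5.12% of all genes tested lower at that unadjusted p and 7.94% lower without overlap. The 3 genes were Myb, Runx1 and Gata2. Lower Gata2 in the Tet2-deficient blasts is a main result of the paper, so its place in these counts was known beforehand. Myb, a driver of immature myeloid expression, measured 253, 272 and 333 CPM in Tet2+/+ mice 19, 23 and 24, and 192, 198 and 162 CPM in Tet2-/- mice 5, 7 and 8. Its log2 fold change was -0.64 (SE 0.18, edgeR adjusted p 0.487), and every Tet2-/- mouse was lower. Runx1, the DNA-binding partner of Cbfb, measured 134, 107 and 101 CPM against 84.1, 88.2 and 86.5 CPM, a log2 fold change of -0.40 (SE 0.16, edgeR adjusted p 0.604). Gata2, a factor of stem, mast and basophil cells, measured 23.3, 27.9 and 27.3 CPM against 8.60, 4.43 and 5.21 CPM, a log2 fold change of -2.10 (SE 0.30, edgeR adjusted p 0.117). The basophil and mast cell markers, which include Gata2, summed to 304, 396 and 384 CPM against 110, 60.5 and 30.9 CPM, mostly through Cpa3. Cpa3 and Gata2 separated the genotypes, whereas the mice overlapped for Mcpt8, Cma1 and Ms4a2. Ms4a2 went the other way, with a log2 fold change of 0.48 (SE 0.53). Prss34, Fcer1a and Tpsb2 were too low to be tested.

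The C/EBP family members differed among themselves in sign. Cebpa, the mutated gene itself, had a log2 fold change of -0.80 (SE 0.35), and Cebpb, Cebpd and Cebpe had 0.49 (SE 0.27), 0.68 (SE 0.30) and 0.67 (SE 0.50). The mice overlapped for all of these, as for Spi1, which encodes PU.1, at 0.31 (SE 0.23), and Gfi1 at 0.49 (SE 0.36). Cbfb stood at 0.0098 (SE 0.17). The monocyte factors Irf8 and Klf4 stood at -0.19 (SE 0.57) and -0.16 (SE 0.85), and Lef1 at -0.53 (SE 0.47) was near 1 CPM.

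**Figure D5:**
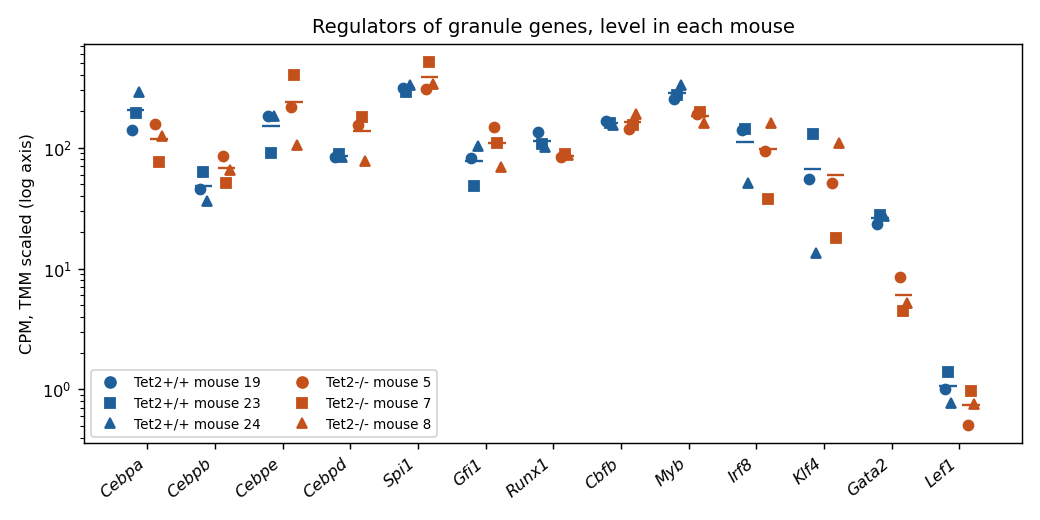
Level of 13 regulators of granule genes in each mouse, in CPM scaled by TMM on a log axis. Points are mice and horizontal lines are genotype means. Runx1, Myb and Gata2 lie lower in all 3 Tet2-/- mice, with Gata2 at 4.43 to 8.60 CPM against 23.3 to 27.9 CPM.

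The secondary granule and mature neutrophil genes, made after the azurophil stage, ranged in level from below most members to above all of them. S100a9, S100a8, Chil3 and Ltf averaged 28839, 23734, 20853 and 20522 TPM over the 6 mice, above every value of Lyz2, whereas Cxcr2 averaged 45.6 TPM. Of 15 genes tested 0 passed an adjusted p of 0.05, 0 passed an unadjusted p under 0.05 and 0 separated the genotypes. The log2 fold change was positive for 15 of 15, with a median of 0.89 beside 0.0016 for all genes tested and 0.10 for genes averaging 10 CPM or more. Most of the 15 were highest in mouse 7, so their signs are not independent observations. Ly6g and Mmp8 had the largest values, 1.77 (SE 1.04) and 1.19 (SE 0.82). The summed level of the 9 mature neutrophil markers was 31229, 5746 and 20749 CPM in Tet2+/+ mice 19, 23 and 24, and 29566, 67122 and 12848 CPM in Tet2-/- mice 5, 7 and 8. Mouse 23 was the lowest of the 6 for this sum, as it was for Elane, Ms4a3 and Srgn among the members. Mouse 8, the next lowest for the sum, was above mice 23 and 24 for these 3 members. The 11 monocyte and macrophage markers summed to 2368, 3209 and 1704 CPM against 4686, 2466 and 5532 CPM, and mouse 24, the lowest, was also the lowest for Lyz2. Mouse 7, the highest for Lyz2, was below mouse 23 for this sum. Of the 11 markers, Ly6c2 alone separated the genotypes, at 1622, 1427 and 1049 CPM against 2992, 2123 and 2494 CPM. The 8 stem and progenitor markers summed to 284, 408 and 340 CPM against 217, 148 and 190 CPM, lower in all 3 Tet2-/- mice through Cd34. Cd34 alone among them separated the genotypes, and the mice overlapped for Kit. Flt3 alone went the other way, with a log2 fold change of 1.75 (SE 0.80) and overlapping mice. The part of these cell mixtures in the member levels was not tested.

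Most genes around the members, and most relatives of them, overlapped between genotypes. Of 37 genes that start within 150 kb of Prss57, Prtn3 or Elane, 31 were tested, 0 passed an adjusted p of 0.05 and 2 separated the genotypes, Cdc34 and the low Gm48495, both higher. The 22 that averaged 1 CPM or more were Tpgs1, Cdc34, Gzmm, Bsg, Polrmt, Rnf126, Fstl3, Palm, E130317F20Rik, Ptbp1, Plppr3, Med16, R3hdm4, Gm26602, Kiss1r, Arid3a, Wdr18, Tmem259, Cnn2, Abca7, Arhgap45 and Polr2e. Their log2 fold changes ran from -0.80 for Gzmm to 0.75 for Gm26602. Cfd, adipsin, which sits just beyond Elane, was at no more than 0.949 CPM. Beside Ctsg on chromosome 14, 4 of 14 serine protease genes were tested, and Gzmb and Mcpt8 alone reached a mean of 1 CPM, with log2 fold changes of -0.079 and -0.99. The 10 Ms4a genes Ms4a1, Ms4a2, Ms4a4a, Ms4a4b, Ms4a4c, Ms4a6b, Ms4a6c, Ms4a6d, Ms4a7 and Ms4a8a had a median log2 fold change of -0.027, and for none of them (0 of 10) did the genotypes separate as for Ms4a3. Cystatins were taken as relatives of Cst7, of which Cst3 alone lies on the same chromosome. Of 7 genes, Cst3, Cstb and the stefins Stfa1, Stfa2, Stfa3 and BC100530 exceeded a mean of 1 CPM, with log2 fold changes from -0.83 to 0.51, and 0 of 7 separated.

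The gene most like each member in pattern was found by the mean absolute difference of centred log2 CPM over the 6 mice, among 9175 genes averaging 10 CPM or more. It is given as a description only, since the search was wide and the mice few. Mpo was closest to Zfp398 (0.062), Ms4a3 to Birc5 (0.070), Prss57 to Rfx3 (0.072), Srgn to Abcd2 (0.081), Ctsg to Mars2 (0.089), Lyz2 to Lpcat1 (0.095), Prtn3 to Rpain (0.11), Elane to Cchcr1 (0.18) and Cst7 to Me2 (0.022). Among the members themselves the closest were Mpo and Prss57 (0.19) and Ms4a3 and Srgn (0.19), and Elane was the most distant from any other, at 0.57 from Lyz2.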

How the data were processed

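RNA from sorted marrow cells was made into unstranded TruSeq v2 libraries and sequenced on a NextSeq 500. Per the paper's methods and the submitters' processing notes, the authors quantified reads with Salmon 0.12.0 through bcbio against Ensembl transcripts of GRCm38.p6. The deposited tables give for each transcript an estimated count, a TPM value, a length and an effective length. Here transcripts were joined to genes with the GENCODE M21 annotation; 112 of 136288 transcripts matched no gene and held at most 0.0416% of reads.

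Estimated counts were summed per gene, rounded, filtered (sum of normalized counts of at least 10) and tested with edgeR 4.0.16 (TMM factors, quasi-likelihood, Benjamini-Hochberg adjustment over 22170 genes, 3 against 3 mice; common biological coefficient of variation 43.6%). SEs are the log2 fold change over the square root of F. DESeq2 1.42.0 and limma 3.58.1 served as alternatives, the latter on log2(TPM + 1) and log2(TPM + 0.1). A member was called separated when no mouse of one genotype reached the other in CPM. Transcript matches used BLAST+ 2.17.0 (at least 100 bases). The functions were tested on simulated data with a single dispersion and changes larger than those of the members. That test therefore does not show how well changes of the members' size are found. Nothing in the labels gives a batch, and p-values cover the spread between these leukaemias, some of which may share a donor.

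The members and gene lists were chosen with earlier results of these data known. Named are all members and regulators, from each other pathway list the 4 highest by TPM and the 2 with the largest change at a mean of at least 1 CPM, neighbours of at least 1 CPM, the gene most like each member, and Tet2. Genes outside this rule are named as separated or as markers.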

Additional observations from a re-analysis of the deposited data

How the results depend on the processing

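For 6 of the 9 members (Mpo, Elane, Prss57, Ms4a3, Lyz2 and Srgn) the sign of the fold change was the same under every alternative tried, and 142 of 154 member values kept their sign. No member passed an adjusted p of 0.05 in any of them, by edgeR, DESeq2 or limma; the lowest was 0.183, for Mpo with DESeq2. The sign turned for Prtn3 and Cst7 with library size only (-0.11 and -0.10), a scaling that shifts the median of all genes by -0.17, with limma on log2(TPM + 1) (-0.12 and -0.064) and with limma on log2(TPM + 0.1) (-0.12 and -0.065). Leaving out 1 mouse turned Prtn3 (-0.039 without mouse 19, -0.017 without 24, -0.33 without 5; range over the 6 mice -0.33 to 0.24), Ctsg (0.20 without 7; range -0.24 to 0.20) and Cst7 (-0.026 without 24, -0.048 without 8; range -0.048 to 0.16). The cause was not tested. The number of members whose genotypes did not overlap ran from 2 to 6 when a mouse was left out. The number at an unadjusted p under 0.05 fell to 0 by edgeR without mouse 5, 23 or 24. It was 2 with DESeq2, with no low-count filter and without mouse 19. With library size only, the member called was Mpo in place of Ms4a3. Over all genes, 10 were lower and 0 higher at an adjusted p of 0.05 by edgeR, against 326 and 59 with DESeq2 on the same counts, 322 and 62 with DESeq2 on length-scaled counts, and 62 and 4 with no low-count filter. With filterByExpr and with RLE factors 1 was higher. Leaving out a mouse gave from 0 lower genes (without mouse 5, 7 or 8) to 7 (without mouse 19), with 2 and 1 without mice 23 and 24. The 35 alternatives for transcript shares and the members' share of TPM kept their direction. The transcript shares among them were taken because their genotypes did not overlap, so leaving out a mouse could not turn their direction. No paired analysis was possible because the groups share no replicate number. With 3 mice per genotype an exact test cannot go below 0.1. In the main edgeR fit, intervals of the members reach from a fall to a rise for all but Ms4a3, which does not hold for every alternative.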
